A study of Mus musculus with 12 samples.

Results

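Interferon-stimulated genes are described here across 4 groups of mouse brainstem progenitors. The 40 genes were taken from a fixed list of interferon-induced and nucleic acid sensing genes and were found by their Ensembl identifiers among the 54532 genes counted in every library. All cells came from Nestin TVA; p53 floxed pups of the C57BL/6 background, were isolated from the brainstem at postnatal days 3 to 5, and were grown as neurospheres without serum in EGF and FGF2. RCAS vectors, avian retroviral vectors that enter only cells bearing the TVA receptor, here under the nestin promoter, delivered human *ACVR1*, either WT or R206H, alone or together with the histone mutant H3.1K27M, which made 4 groups of 3 libraries. These groups are called WT, R206H, WT + H3.1K27M and R206H + H3.1K27M below. ACVR1 is a BMP receptor whose R206H form signals excessively, and H3.1K27M is the histone H3.1 mutant found with it in diffuse intrinsic pontine glioma. None of the 12 samples was uninfected, received a wild-type H3.1 vector or had Cre among its labelled vectors. The H3.1K27M groups therefore also differ from the others by an additional virus, and the mutant histone and the extra infection cannot be told apart.

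Interferons bind receptors at the cell surface, and the associated JAK kinases phosphorylate STAT proteins. With IRF9 these form a complex that binds the interferon-stimulated response element (ISRE) of target genes, whereas STAT dimers bind the gamma-activated site (GAS). The products include sensors of foreign or misplaced RNA and DNA, proteins that block viral entry, replication or release, the ubiquitin-like modifier ISG15 with its enzymes, and guanosine triphosphatases that act on intracellular microbes. Neural progenitors can respond to interferons, and several of these genes are also present at a low level without any added interferon.

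Promoter sequence was available for 29 of the 40 genes, in 34 windows from 250 bases before to 50 bases after the RefSeq start (GRCm38.p6), as some genes had several starts. The ISRE core was searched as GAAA, any 2 bases, and GAAA again, on both strands, and it was held by 16 of the 34 windows (47.1%, exact 95% interval 29.8 to 64.9%), against 1131 of 32851 windows of all genes (3.44%). The GAS, searched as TTC, any 3 bases and GAA, which reads the same on both strands, was held by 9 of the 34 windows (26.5%) and by 8.3% of all windows. In the genes below the capitals mark the ISRE core, which reads TTTC, any 2 bases and TTTC where it lies on the other strand. Ifit1 and Isg15 are shown because they had among the largest differences, with 2 and 3 matches, Rsad2 and Igtp because they represent the antiviral effectors and the GTPases, and Stat2 because it holds a match and yet differed little between the groups. All 5 stretches lie upstream of the start, Ifit1 at chr19:34640734-34640833, plus strand, Isg15 at chr4:156200855-156200954, minus strand, Rsad2 at chr12:26456543-26456642, minus strand, Igtp at chr11:58199452-58199551, plus strand, and Stat2 at chr10:128270248-128270305, plus strand, and each is written on the strand of its gene.
Ifit1: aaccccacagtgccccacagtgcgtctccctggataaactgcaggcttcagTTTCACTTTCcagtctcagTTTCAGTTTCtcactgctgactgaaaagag
Isg15: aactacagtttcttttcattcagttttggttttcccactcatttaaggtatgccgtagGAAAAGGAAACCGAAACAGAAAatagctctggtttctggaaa
Rsad2: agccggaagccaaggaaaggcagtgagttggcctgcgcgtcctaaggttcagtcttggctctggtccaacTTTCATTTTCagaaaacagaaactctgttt
Igtp: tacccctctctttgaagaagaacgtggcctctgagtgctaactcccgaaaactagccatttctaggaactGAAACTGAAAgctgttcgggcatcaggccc
Stat2: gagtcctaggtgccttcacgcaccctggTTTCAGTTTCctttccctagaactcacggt

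Of the 16 genes with an ISRE core in a window, all tested, 13 were higher and 0 lower with H3.1K27M in the *ACVR1* WT background, where 12.6% of all genes tested were higher and 10.4% lower, and 14 were higher and 1 lower in the R206H background, where the shares of all genes were 29.1% and 27.4%. The median log2 fold changes were 1.48 and 1.64. Of the 13 genes whose windows hold none, 12 were tested, and 6 and 10 of these were higher and 0 lower, with medians of 0.51 and 0.69. For R206H against WT with H3.1K27M, 5 of the 16 genes with the core were higher and 2 lower (median 0.21), and 7 of the 12 without it were higher and 0 lower (median 0.33), beside 11.4% higher and 8.95% lower of all genes. Without H3.1K27M 0 of either were called for R206H. Without WT replicate 1, a library described below, 13 of the first 16 genes were higher and 1 lower in the WT background, and 8 of the other 12 were higher. The shares of all genes were then 26.9% higher and 25.6% lower. Such a match is a description of the letters in the window, not of binding.

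The libraries held between 19315020 and 26456257 counted reads. Levels are given as CPM, the library's count scaled to a common total after TMM normalization over the 12 libraries, and tests are edgeR's quasi-likelihood F test on the raw counts with Benjamini-Hochberg adjustment over all genes tested, a gene being called at an adjusted p under 0.05. Acvr1, counted on the mouse gene although the vectors carried the human one, stood at 53.1, 46.1 and 52.3 CPM in WT, 114, 82.3 and 86.1 in R206H, 172, 163 and 368 in WT + H3.1K27M and 1000.5, 548 and 1056 in R206H + H3.1K27M. It thus rose with the labelled R206H and with H3.1K27M alike, and the amount of vector, the receptor allele and the mutant histone cannot be told apart in these comparisons. Id1, a target of BMP signaling, was at 12.5, 11.9 and 21.8 CPM in WT, 40.5, 34.4 and 32.5 in R206H, 13.8, 12.5 and 13.96 in WT + H3.1K27M and 103, 94.1 and 118 in R206H + H3.1K27M, and Trp53, the floxed gene, lay between 76.1 and 126 CPM. Neural progenitor markers were present in every library, with Sox2 at 213 to 374 CPM and Nes at 72.5 to 404 CPM. Of the 8 markers 4 (Sox2, Sox9, Hes5 and Pax6) were lower with H3.1K27M in both backgrounds, Hes5 most, by -2.92 and -2.91 on the log2 scale. In the R206H background 2 others, Vim and Olig2, were higher, and of all genes 10.4% were lower in the WT background and 27.4% in the R206H background. The libraries of WT stood apart from each other, and replicate 1 had the lowest weight of its comparison (0.123 against 0.501 to 3.35 in limma's sample weights), so the counts of called genes over whole lists that use this group are also given without it. As these were bulk samples, fewer cells of a type and less RNA per cell cannot be told apart.

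H3.1K27M went with higher interferon-stimulated genes in both *ACVR1* backgrounds. Of the 40 genes, 36 had enough counts to be tested; Zbp1, Oas2, Mx1 and Sp100 did not, and the 36 passed the count filter already within the libraries without H3.1K27M. In the WT background 24 of the 36 were higher with H3.1K27M and 0 were lower, where 12.6% of all genes tested were higher and 10.4% lower. The median log2 fold change of the 36 genes was 0.82, beside -0.02 over all genes. In the R206H background 31 were higher and 1 was lower, where the background was 29.1% and 27.4%, and the median was 1.41 beside -0.002 over all genes. These 2 comparisons share no library, and the 24 genes higher in the WT background (100% of them) were all among the 31 of the R206H background (77.4% of those). The same overlap was not computed over all genes, so these shares have no background beside them. By group mean, 28 of the 36 genes were highest in R206H + H3.1K27M, 5 in WT + H3.1K27M, 2 in WT and 1 in R206H, while of all genes 24.2%, 24.4%, 31.4% and 20% had their highest mean there.

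**Figure D1:**
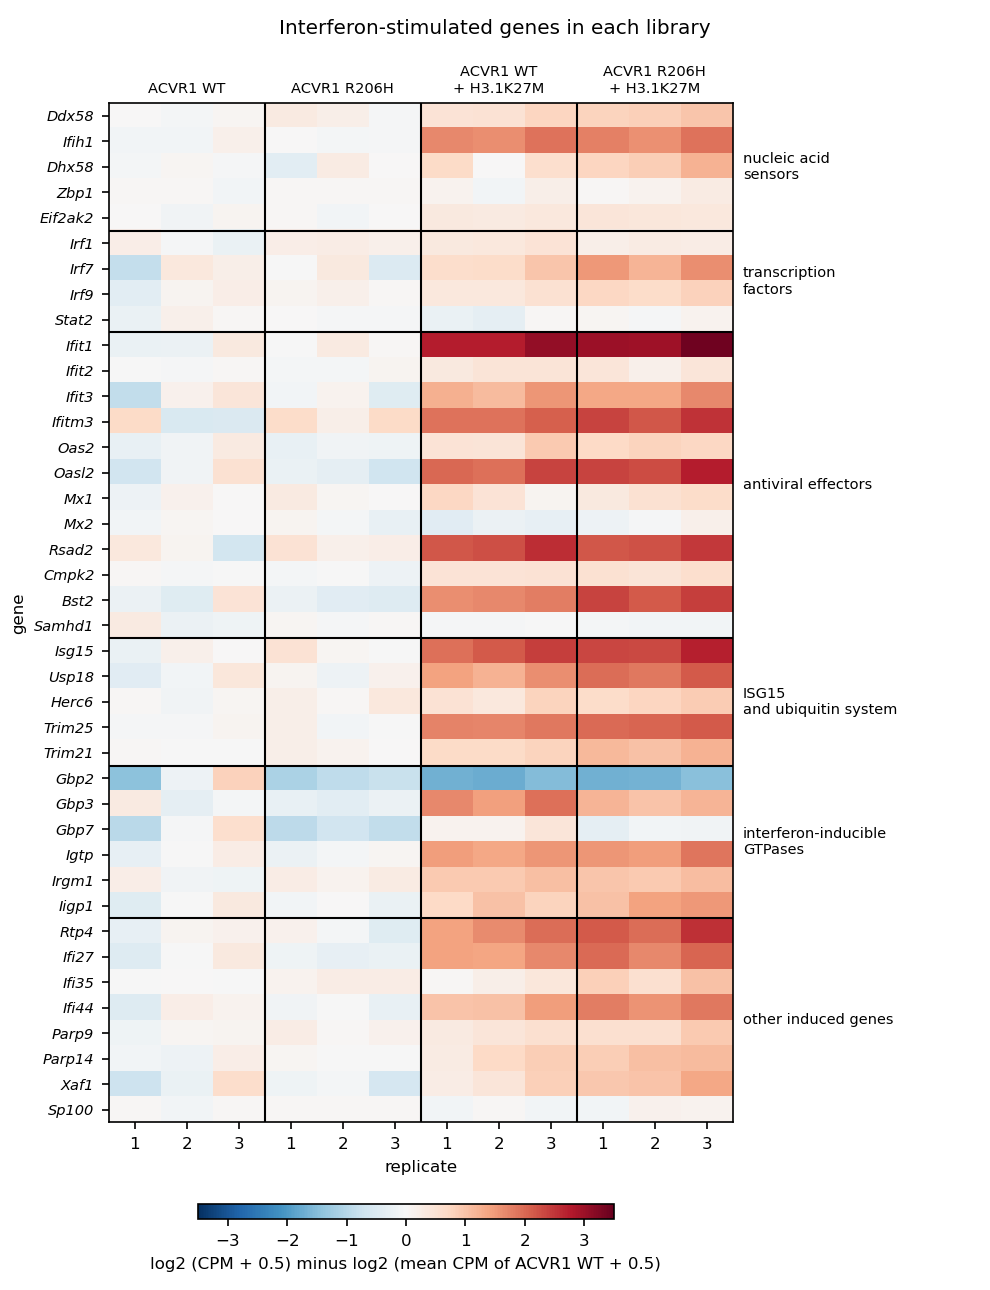
Levels of the 40 interferon-stimulated genes in the 12 libraries, grouped by role, with colour for log2 (CPM + 0.5) minus the same value of the gene's mean in WT. Most genes are higher in the 6 libraries with H3.1K27M than in the 6 without, whereas Gbp2 is highest in replicates 2 and 3 of WT.

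The call depended on the library in the WT background. Without WT replicate 1 the count of higher genes was 27 and of lower genes 2, where 26.9% and 25.6% of all genes were called. The 24 genes were all called there too, joined by Irf1, Irf9 and Parp14 as higher and by Gbp2 and Mx2 as lower, and the value of Gbp7, which was not called, went from 0.22 to -0.10. By contrast, leaving out any of the 3 WT + H3.1K27M libraries or WT replicate 2 left 14 or 15 higher genes, and 13 of the 24 were called in each of the 12 settings tried. With those libraries left out, 1037 to 1445 of all genes were called in either direction, against 3533 with none left out. In the R206H background 30 of the 32 called genes were called in each of the 12 settings.

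Of the nucleic acid sensors, 3 of 4 tested were higher with H3.1K27M in the WT background and 4 of 4 in the R206H background, beside 12.6% and 29.1% of all genes. Ifih1, which encodes MDA5, a sensor of long double-stranded RNA, stood at 2.31, 2.32 and 2.91 CPM in WT, 2.57, 2.39 and 2.43 in R206H, 9.13, 8.79 and 10.8 in WT + H3.1K27M and 9.70, 8.71 and 10.7 in R206H + H3.1K27M. The 6 libraries with H3.1K27M all lay above the 6 without it, and the log2 fold change was 1.92 ± 0.17 (SE, edgeR adjusted p = 0.00168) in the WT background and 2.01 ± 0.13 (SE, edgeR adjusted p = 1.07e-07) in the R206H background. Ddx58 encodes RIG-I, which senses short double-stranded RNA with an uncapped end. Its level was 27.5, 26.2 and 28.4 CPM in WT, 33.8, 31.3 and 26.8 in R206H, 38.3, 39.1 and 46.8 in WT + H3.1K27M and 47.5, 49.4 and 53.9 in R206H + H3.1K27M. It differed by 0.59 ± 0.10 (SE, edgeR adjusted p = 0.0112) and 0.75 ± 0.08 (SE, edgeR adjusted p = 9.68e-06) with H3.1K27M in the WT and R206H backgrounds, again without overlap. Eif2ak2, the RNA-activated kinase PKR that arrests translation, was already high without H3.1K27M, at 75.6, 68.2 and 79.3 CPM in WT, 76.3, 69.1 and 74.7 in R206H, 95.1, 93.1 and 95.4 in WT + H3.1K27M and 100.5, 97.6 and 95.8 in R206H + H3.1K27M. Its log2 fold changes were smaller, 0.33 ± 0.07 (SE, edgeR adjusted p = 0.0222) and 0.45 ± 0.05 (SE, edgeR adjusted p = 9.14e-06). Dhx58 encodes the helicase LGP2, which modulates the other RNA sensors. It was low throughout, at 0.753, 0.877 and 0.777 CPM in WT, 0.503, 1.09 and 0.826 in R206H, 1.58, 0.812 and 1.44 in WT + H3.1K27M and 1.71, 1.84 and 2.503 in R206H + H3.1K27M, was higher with H3.1K27M in the R206H background, by 1.36 ± 0.29 (SE, edgeR adjusted p = 0.00156), and reached 0.66 ± 0.30 (SE, edgeR adjusted p = 0.153) in the WT background, where the groups overlapped. Zbp1, a sensor of Z-form nucleic acid, had 17 counts in all 12 libraries together and never exceeded 0.149 CPM.

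Of the 4 transcription factors, 0 were called with H3.1K27M in the WT background and 2, Irf7 and Irf9, were higher in the R206H background, where 12.6% and 29.1% of all genes were higher. Leaving out WT replicate 1 called 2 of them, Irf1 and Irf9, higher in the WT background, beside 26.9% of all genes in that setting. Irf9, the DNA-binding member of the complex that recognises the ISRE, was at 18.9, 26.3 and 28.7 CPM in WT, 26.5, 27.7 and 25.5 in R206H, 31.9, 32.0 and 36.2 in WT + H3.1K27M and 41.1, 39.0 and 43.1 in R206H + H3.1K27M. It was higher with H3.1K27M in the R206H background by 0.66 ± 0.06 (SE, edgeR adjusted p = 1.78e-06), and the WT background gave 0.43 ± 0.16 (SE, edgeR adjusted p = 0.104). Irf7, which drives transcription of the type I interferon genes, was at 0.847, 2.58 and 2.28 CPM in WT, 1.86, 2.55 and 1.22 in R206H, 3.20, 3.25 and 4.20 in WT + H3.1K27M and 6.32, 4.93 and 6.87 in R206H + H3.1K27M. The R206H + H3.1K27M libraries were the highest, and the log2 fold change with H3.1K27M was 1.73 ± 0.22 (SE, edgeR adjusted p = 3.38e-05) in the R206H background and 0.89 ± 0.39 (SE, edgeR adjusted p = 0.145) in the WT background. Stat2 stood at 32.4, 43.1 and 39.1 CPM in WT, 38.4, 37.2 and 37.5 in R206H, 32.7, 30.5 and 39.1 in WT + H3.1K27M and 40.2, 37.1 and 41.3 in R206H + H3.1K27M. Its groups overlapped in both H3.1K27M comparisons, with differences of -0.18 ± 0.14 (SE, edgeR adjusted p = 0.401) and 0.10 ± 0.05 (SE, edgeR adjusted p = 0.143). Irf1, which responds mainly to interferon gamma, ranged from 13.4 to 22.4 CPM over the 12 libraries. Irf7 overlaps the antisense gene Phrf1 and Irf9 the gene Rnf31 on the same strand, and the counting ignored strand and left out reads assigned to both.

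The antiviral effectors included the gene with the largest fold change of the 36 tested, Ifit1. In each background 8 of 10 tested effectors were higher with H3.1K27M and 0 lower, with median log2 fold changes of 1.61 and 1.82. Of all genes, 12.6% were higher in the WT background and 29.1% in the R206H background. Ifit1, which binds viral RNA whose cap lacks methylation, stood at 1.98, 2.01 and 3.20 CPM in WT, 2.36, 3.12 and 2.48 in R206H, 19.1, 19.1 and 23.9 in WT + H3.1K27M and 22.4, 22.1 and 30.2 in R206H + H3.1K27M. Every library with H3.1K27M lay above every library without it, by 3.09 ± 0.23 (SE, edgeR adjusted p = 0.00119) in the WT background and 3.27 ± 0.16 (SE, edgeR adjusted p = 1.21e-08) in the R206H background, or 8.54-fold and 9.62-fold. Oasl2, of the oligoadenylate synthetase family, was at 1.88, 2.94 and 4.95 CPM in WT, 2.72, 2.55 and 1.80 in R206H, 14.7, 13.8 and 18.8 in WT + H3.1K27M and 18.7, 17.9 and 24.6 in R206H + H3.1K27M. The differences were 2.27 ± 0.35 (SE, edgeR adjusted p = 0.00782) and 3.15 ± 0.17 (SE, edgeR adjusted p = 2.51e-08). Rsad2 encodes viperin, an enzyme that makes a chain-terminating nucleotide. With 5.18, 4.18 and 2.28 CPM in WT, 5.73, 4.42 and 4.67 in R206H, 19.4, 20.4 and 25.9 in WT + H3.1K27M and 19.1, 19.9 and 24.0 in R206H + H3.1K27M, it also separated by H3.1K27M and not by the *ACVR1* allele. The log2 fold changes were 2.48 ± 0.30 (SE, edgeR adjusted p = 0.00401) and 2.12 ± 0.12 (SE, edgeR adjusted p = 4.8e-08). Bst2 encodes tetherin, which holds budding virus at the cell surface. It was at 3.20, 2.68 and 5.44 CPM in WT, 3.22, 2.76 and 2.62 in R206H, 12.6, 13.2 and 14.3 in WT + H3.1K27M and 21.6, 18.4 and 22.2 in R206H + H3.1K27M. H3.1K27M went with 1.81 ± 0.27 (SE, edgeR adjusted p = 0.0071) in the WT background and 2.88 ± 0.11 (SE, edgeR adjusted p = 3.37e-09) in the R206H background, and the 4 groups ordered as R206H + H3.1K27M, then WT + H3.1K27M, then WT and R206H, which overlapped. Ifitm3, a membrane protein that blocks fusion of entering virus, had the highest level per kb of exon in the list. It stood at 31.5, 13.3 and 13.7 CPM in WT, 30.7, 22.5 and 31.5 in R206H, 74.1, 73.6 and 85.4 in WT + H3.1K27M and 102, 88.9 and 114 in R206H + H3.1K27M, with WT replicate 1 apart from the other 2 libraries of its group. H3.1K27M gave 1.98 ± 0.35 (SE, edgeR adjusted p = 0.012) and 1.88 ± 0.11 (SE, edgeR adjusted p = 6.46e-08).

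The other effectors were less affected or rare. Ifit2 and Ifit3, relatives of Ifit1, and Cmpk2, a mitochondrial nucleotide kinase, were higher with H3.1K27M in both backgrounds, with log2 fold changes of 0.41 and 0.39 for Ifit2, 1.41 and 1.77 for Ifit3, and 0.48 and 0.67 for Cmpk2. Ifit3 has a close copy in the genome, and reads matching both were not counted. Mx2, a dynamin-like GTPase, ranged from 4.07 to 6.35 CPM and Samhd1, which depletes deoxynucleotides, from 32.7 to 46.7 CPM, and neither passed the test in any of the 4 pairwise comparisons. Oas2 and Mx1 stayed under 1 CPM, at 0.0941 to 0.840 and 0.141 to 0.705, with 113 and 106 counts in all.

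**Figure D2:**
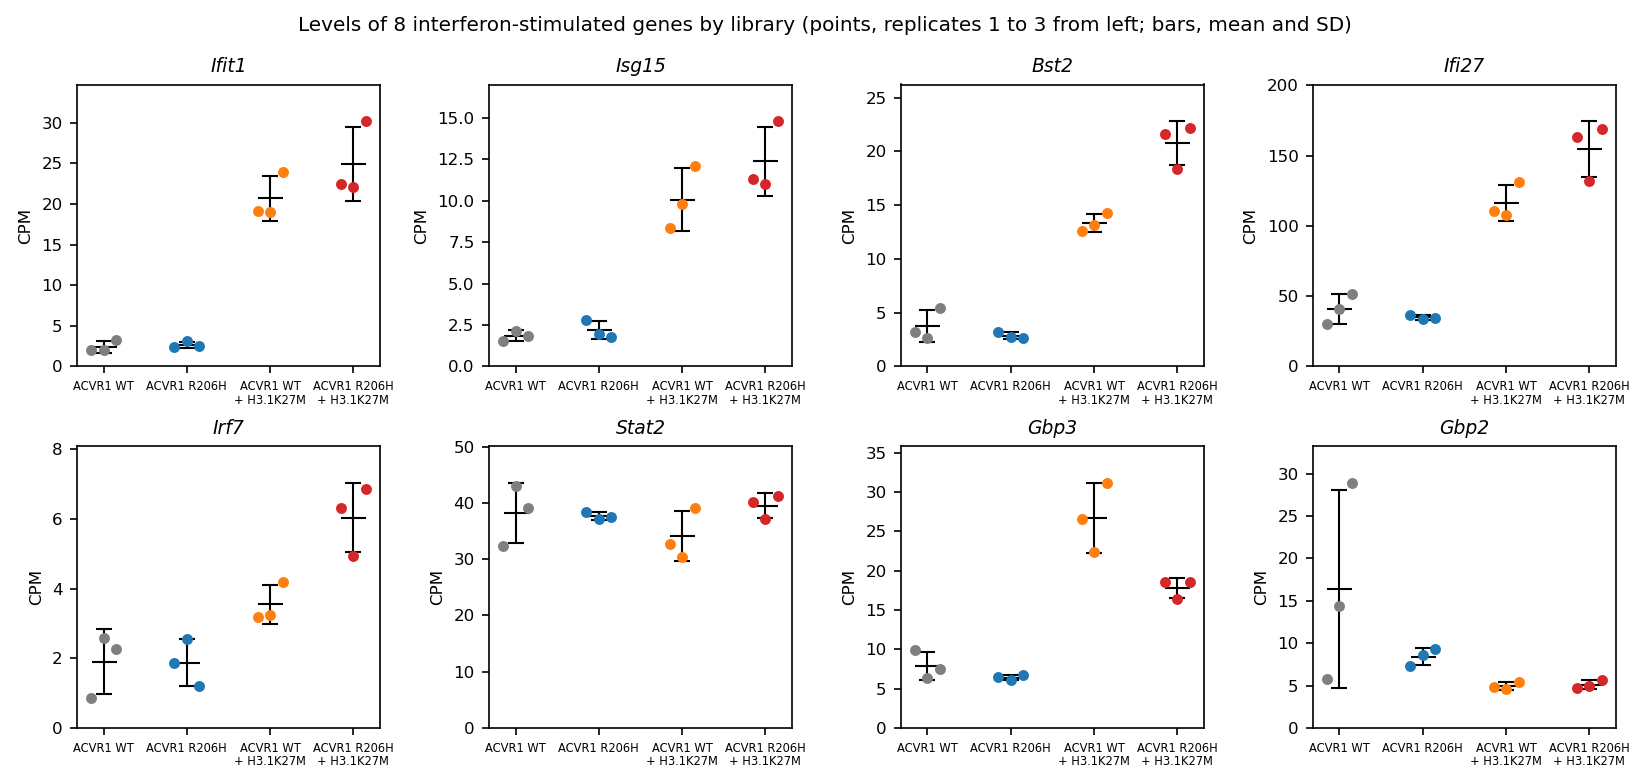
CPM (vertical axis) in each library of the 4 groups for 8 interferon-stimulated genes, with points for replicates 1 to 3 from left to right and bars for the mean and SD. Ifit1, Isg15 and Bst2 do not overlap between the libraries with and without H3.1K27M, whereas Stat2 does.

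All 5 genes of the ISG15 and ubiquitin group were higher with H3.1K27M in both backgrounds, with median log2 fold changes of 1.68 and 2.09, where 12.6% and 29.1% of all genes were higher. Isg15, the modifier itself, was at 1.51, 2.17 and 1.84 CPM in WT, 2.82, 1.98 and 1.80 in R206H, 8.34, 9.79 and 12.1 in WT + H3.1K27M and 11.3, 11.02 and 14.8 in R206H + H3.1K27M. The 6 libraries with H3.1K27M did not overlap with the other 6, and the log2 fold change was 2.44 ± 0.22 (SE, edgeR adjusted p = 0.00174) in the WT background and 2.53 ± 0.18 (SE, edgeR adjusted p = 2.19e-07) in the R206H background. Usp18 removes ISG15 from proteins and restrains receptor signaling. It stood at 1.04, 1.39 and 2.14 CPM in WT, 1.66, 1.30 and 1.75 in R206H, 4.90, 4.16 and 5.72 in WT + H3.1K27M and 7.27, 6.73 and 8.37 in R206H + H3.1K27M. The differences were 1.68 ± 0.29 (SE, edgeR adjusted p = 0.011) and 2.27 ± 0.16 (SE, edgeR adjusted p = 2.45e-07). Trim25, a ubiquitin ligase that acts with RIG-I, had the smallest adjusted p of the 36 genes in the WT background. Its levels were 13.03, 13.1 and 14.5 CPM in WT, 15.7, 12.7 and 13.5 in R206H, 46.4, 45.1 and 49.7 in WT + H3.1K27M and 55.05, 57.2 and 62.1 in R206H + H3.1K27M. H3.1K27M went with 1.79 ± 0.09 (SE, edgeR adjusted p = 3.29e-04) and 2.09 ± 0.08 (SE, edgeR adjusted p = 3.05e-09). Trim21, an antibody receptor and ubiquitin ligase inside the cell, was at 7.95, 7.63 and 7.57 CPM in WT, 9.05, 8.37 and 7.87 in R206H, 12.7, 12.6 and 13.7 in WT + H3.1K27M and 17.4, 16.1 and 18.6 in R206H + H3.1K27M. It rose by 0.74 ± 0.11 (SE, edgeR adjusted p = 0.0065) and 1.08 ± 0.09 (SE, edgeR adjusted p = 8.73e-07). Herc6, the ligase that attaches ISG15 in the mouse, ranged from 9.34 to 13.4 CPM without H3.1K27M and from 13.2 to 19.5 CPM with it.

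The interferon-inducible GTPases did not move as a block. In the WT background 4 of 6 were higher, beside 12.6% of all genes. In the R206H background 5 of 6 were higher and 1 lower, beside 29.1% and 27.4%. Igtp, an immunity-related GTPase, stood at 3.67, 4.54 and 5.68 CPM in WT, 3.92, 4.42 and 4.91 in R206H, 13.6, 12.7 and 14.5 in WT + H3.1K27M and 14.6, 13.5 and 18.2 in R206H + H3.1K27M. It differed by 1.54 ± 0.18 (SE, edgeR adjusted p = 0.00372) and 1.84 ± 0.13 (SE, edgeR adjusted p = 3.23e-07), but it overlaps Irgm2 on the same strand. Irgm1, a regulator of that family, was abundant, at 66.1, 51.6 and 50.3 CPM in WT, 67.0, 61.1 and 68.7 in R206H, 107, 106 and 118 in WT + H3.1K27M and 109.5, 107 and 118 in R206H + H3.1K27M. The log2 fold changes were 0.96 ± 0.12 (SE, edgeR adjusted p = 0.00436) and 0.79 ± 0.05 (SE, edgeR adjusted p = 1.99e-07). Iigp1 was at 1.13, 1.65 and 2.28 CPM in WT, 1.56, 1.72 and 1.36 in R206H, 3.03, 3.92 and 3.28 in WT + H3.1K27M and 3.99, 5.28 and 5.75 in R206H + H3.1K27M, with differences of 1.00 ± 0.28 (SE, edgeR adjusted p = 0.0458) and 1.73 ± 0.19 (SE, edgeR adjusted p = 1.13e-05). Gbp3, a guanylate-binding protein, stood at 9.88, 6.29 and 7.47 CPM in WT, 6.44, 6.03 and 6.71 in R206H, 26.5, 22.4 and 31.2 in WT + H3.1K27M and 18.5, 16.3 and 18.6 in R206H + H3.1K27M. It was highest in WT + H3.1K27M, and H3.1K27M gave 1.75 ± 0.21 (SE, edgeR adjusted p = 0.00373) and 1.51 ± 0.09 (SE, edgeR adjusted p = 5.94e-08). Gbp7 was at 14.02, 26.6 and 41.7 CPM in WT, 14.4, 17.2 and 14.9 in R206H, 30.0, 29.7 and 36.7 in WT + H3.1K27M and 22.01, 25.7 and 25.1 in R206H + H3.1K27M, with the widest spread in WT. It was higher with H3.1K27M in the R206H background, by 0.68 ± 0.09 (SE, edgeR adjusted p = 4.25e-05), and the WT background gave 0.22 ± 0.36 (SE, edgeR adjusted p = 0.702). Gbp2, named after its values were seen, was the only gene of the list called lower with H3.1K27M. Its levels were 5.79, 14.4 and 28.9 CPM in WT, 7.29, 8.58 and 9.28 in R206H, 4.81, 4.54 and 5.44 in WT + H3.1K27M and 4.75, 4.89 and 5.68 in R206H + H3.1K27M. The R206H background gave -0.68 ± 0.13 (SE, edgeR adjusted p = 6.28e-04) and the WT background -1.74 ± 0.54 (SE, edgeR adjusted p = 0.0618), the latter resting on WT libraries that ran from 5.79 to 28.9 CPM. Members of this family share sequence, and reads matching more than 1 copy were not counted.

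Of the remaining induced genes, 4 of 7 tested were higher in the WT background and 7 of 7 in the R206H background, beside 12.6% and 29.1% of all genes. Ifi27 was among the highest of the list per kb, at 30.0, 40.9 and 51.9 CPM in WT, 36.8, 33.5 and 34.8 in R206H, 110.4, 108 and 131 in WT + H3.1K27M and 163, 132 and 169 in R206H + H3.1K27M. It differed by 1.498 ± 0.20 (SE, edgeR adjusted p = 0.00526) and 2.17 ± 0.08 (SE, edgeR adjusted p = 2.22e-09), with the R206H + H3.1K27M libraries on top. Rtp4, a receptor transport protein, was at 2.21, 3.04 and 3.20 CPM in WT, 3.22, 2.65 and 1.99 in R206H, 8.26, 9.98 and 12.4 in WT + H3.1K27M and 14.3, 12.5 and 18.9 in R206H + H3.1K27M, but it overlaps the antisense gene Masp1. The differences were 1.85 ± 0.22 (SE, edgeR adjusted p = 0.00397) and 2.57 ± 0.19 (SE, edgeR adjusted p = 3.31e-07). Ifi44 stood at 1.79, 3.20 and 2.96 CPM in WT, 2.41, 2.599 and 2.14 in R206H, 5.81, 5.92 and 8.16 in WT + H3.1K27M and 10.5, 8.92 and 10.8 in R206H + H3.1K27M. The log2 fold changes were 1.31 ± 0.27 (SE, edgeR adjusted p = 0.018) and 2.11 ± 0.13 (SE, edgeR adjusted p = 8.84e-08). Parp9 and Parp14 attach ADP-ribose to proteins. Parp9 was at 15.5, 18.1 and 18.5 CPM in WT, 20.8, 17.8 and 19.2 in R206H, 21.7, 23.6 and 25.6 in WT + H3.1K27M and 26.05, 25.9 and 33.1 in R206H + H3.1K27M. It differed by 0.44 ± 0.11 (SE, edgeR adjusted p = 0.0381) and 0.59 ± 0.10 (SE, edgeR adjusted p = 2.92e-04), and it overlaps the antisense gene Dtx3l. Parp14 was at 5.41, 5.06 and 6.84 CPM in WT, 6.09, 5.72 and 5.69 in R206H, 7.18, 9.74 and 10.9 in WT + H3.1K27M and 10.8, 12.4 and 12.9 in R206H + H3.1K27M, with 0.67 ± 0.21 (SE, edgeR adjusted p = 0.0614) and 1.08 ± 0.11 (SE, edgeR adjusted p = 3.97e-06). Xaf1, a partner of an inhibitor of apoptosis, was at 4.85, 7.12 and 13.3 CPM in WT, 7.49, 8.06 and 5.39 in R206H, 10.1, 11.4 and 15.5 in WT + H3.1K27M and 16.8, 17.2 and 22.1 in R206H + H3.1K27M. It was higher in the R206H background, by 1.46 ± 0.14 (SE, edgeR adjusted p = 4.43e-06), and the WT background, where WT replicate 3 lay above 2 of the 3 H3.1K27M libraries, gave 0.54 ± 0.38 (SE, edgeR adjusted p = 0.34). Ifi35 was at 3.29, 3.35 and 3.25 CPM in WT, 3.62, 4.05 and 4.03 in R206H, 3.40, 3.92 and 4.48 in WT + H3.1K27M and 6.27, 5.10 and 7.21 in R206H + H3.1K27M. Its H3.1K27M differences were 0.24 ± 0.16 (SE, edgeR adjusted p = 0.317) and 0.70 ± 0.15 (SE, edgeR adjusted p = 0.00155). Sp100, a nuclear body protein, had 10 counts in all.

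Per kb of exon, which allows levels to be compared between genes, the R206H + H3.1K27M means were 150.3 CPM per kb for Ifitm3, 105 for Ifi27, 23.0 for Bst2, 19.2 for Irgm1, 19.2 for Eif2ak2 and 16.4 for Isg15. In WT, Ifitm3 and Ifi27 led with 28.7 and 27.9 CPM per kb, followed by Eif2ak2 with 14.5 and Irgm1 with 9.64. The order of Ifitm3 and Ifi27 there rested on WT replicate 1, where Ifitm3 was at 31.5 CPM, against 13.3 and 13.7 CPM in replicates 2 and 3.

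The *ACVR1* R206H comparison without H3.1K27M called no gene of the list. Of the 36 genes tested, 0 were higher and 0 were lower, and 0 reached an unadjusted p under 0.05, with a median log2 fold change of -0.02, beside -0.01 over all genes. The background was 0% in either direction, since edgeR called no gene of 15066 here, with 534 genes at an unadjusted p under 0.05, and DESeq2 also called none of the 36. Ifi35 was the only tested gene of the list whose R206H libraries all lay above those of WT, and 0 lay wholly below, against 5.34% and 3.87% of all genes. Among the genes named by rule, Isg15 differed by 0.25 ± 0.25 (SE, edgeR adjusted p = 0.94), Stat2 by -0.03 ± 0.11 (SE, edgeR adjusted p = 0.975), Irf7 by -0.03 ± 0.46 (SE, edgeR adjusted p = 0.993) and Ifit1 by 0.14 ± 0.25 (SE, edgeR adjusted p = 0.942). Leaving out WT replicate 1 gave 3 higher genes (Ifitm3, Irgm1 and Irf1) and 3 lower (Gbp2, Gbp7 and Ifi27) among 3485 genes called (12.1% of all genes higher and 11% lower), and limma with sample weights gave 3 higher (Ifitm3, Irf1 and Irgm1) and 2 lower (Gbp2 and Gbp7) among 3683.

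In the presence of H3.1K27M, *ACVR1* R206H went with higher levels of many of the genes than *ACVR1* WT. Of 38 genes tested (Oas2 and Mx1 passed the filter here) 18 were higher and 2 lower, where 11.4% of all genes were higher and 8.95% lower, and the median log2 fold change was 0.31 beside 0.001 over all genes. Bst2, with 0.67 ± 0.08 (SE, edgeR adjusted p = 1.13e-04), had the smallest adjusted p of these genes, and its 3 R206H + H3.1K27M libraries all lay above the WT + H3.1K27M libraries. Irf7 differed by 0.80 ± 0.15 (SE, edgeR adjusted p = 0.00304) and Irf9 by 0.33 ± 0.06 (SE, edgeR adjusted p = 0.00243). Trim21 differed by 0.45 ± 0.08 (SE, edgeR adjusted p = 0.00112), Trim25 by 0.34 ± 0.06 (SE, edgeR adjusted p = 0.00132) and Usp18 by 0.63 ± 0.13 (SE, edgeR adjusted p = 0.00496). All 7 tested genes of the remaining group were higher, with Ifi27 at 0.44 ± 0.08 (SE, edgeR adjusted p = 0.00292), Ifi44 at 0.63 ± 0.13 (SE, edgeR adjusted p = 0.00486) and Ifi35 at 0.69 ± 0.15 (SE, edgeR adjusted p = 0.00636). Ifitm3 differed by 0.42 ± 0.08 (SE, edgeR adjusted p = 0.00227) and Ddx58 by 0.31 ± 0.08 (SE, edgeR adjusted p = 0.0118). The remaining higher genes, Oasl2, Iigp1, Rtp4, Xaf1, Parp9, Parp14 and Stat2, had adjusted p values of 0.00782 to 0.0486.

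The 2 lower genes were both guanylate-binding proteins, Gbp3 with -0.56 ± 0.10 (SE, edgeR adjusted p = 0.00208) and Gbp7 with -0.37 ± 0.09 (SE, edgeR adjusted p = 0.0106). Isg15, Ifit1 and Rsad2, which were higher with H3.1K27M, did not pass the test between the alleles. Isg15 gave 0.33 ± 0.14 (SE, edgeR adjusted p = 0.117) and Ifit1 0.30 ± 0.12 (SE, edgeR adjusted p = 0.0938), with groups that overlapped for both, and Rsad2 gave -0.03 ± 0.11 (SE, edgeR adjusted p = 0.899). Stat2 was called at 0.24 ± 0.08 (SE, edgeR adjusted p = 0.0486) although its groups overlapped. The calls of this comparison differed between fits. DESeq2 and limma with sample weights each gave 18 higher and 2 lower genes, and the replicate number as a block gave 20 and 2. When all 12 libraries were fitted together, which pools the spread of the 4 groups, 2 genes were called (Ifi35 with a log2 fold change of 0.68 and Trim21 with 0.45), 0 were lower, and 440 genes were called in all. Without R206H + H3.1K27M replicate 3, 11 of the genes were higher, among 1915 genes called in all. Of the 20 called genes 2, Ifi35 and Trim21, were called in each of the 12 settings tried.

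**Figure D3:**
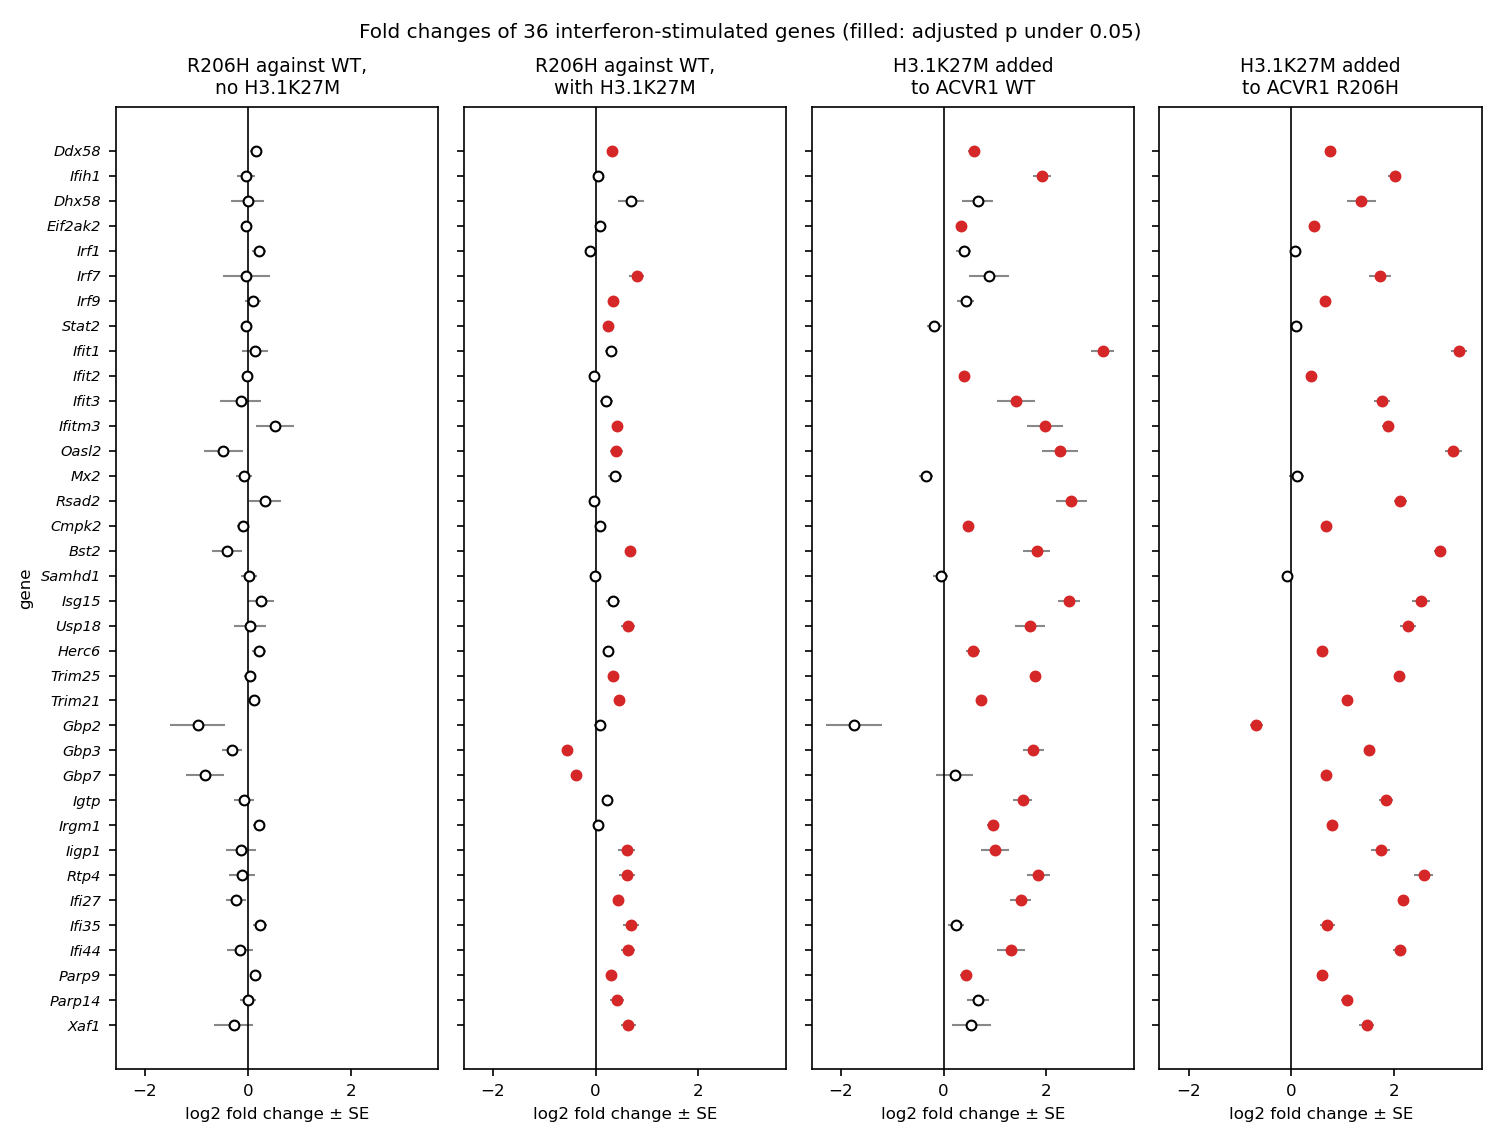
Log2 fold changes (horizontal axis, bars for the standard error) of 36 genes ordered by role in the 4 comparisons of 2 groups, with filled points at an adjusted p under 0.05. The differences with H3.1K27M are the largest, up to 3.27 for Ifit1, and those between the *ACVR1* alleles without H3.1K27M scatter around 0.

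Whether the *ACVR1* R206H difference was larger with H3.1K27M was tested as an interaction over the 12 libraries. None of the 36 genes was called (0 higher and 0 lower), while 7 had an unadjusted p under 0.05 and DESeq2 called 0. The background was 0.0712%, 11 of 15445 genes. The median interaction was 0.30, beside 0.02 over all genes, and Bst2 had the smallest p, 1.07 ± 0.30 (SE, edgeR adjusted p = 0.397). Without WT replicate 1, 11 genes had a higher and 3 a lower R206H effect with H3.1K27M, among 4112 genes called, with Bst2 at 1.19, Gbp2 at 1.47 and Ifitm3 at -0.63, and limma with sample weights gave 9 and 4 among 4550. The effect of R206H alone and that of R206H with H3.1K27M are therefore not shown to differ in the comparison as designed.

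The rest of the pathway was taken from fixed lists of ligands, receptors with the JAK-STAT chain, sensing adaptors with kinases, and 51 other interferon-induced genes. No interferon gene had enough counts to be tested. Of 21 ligand genes, 14 were at 0 in all 12 libraries, and their sum did not exceed 0.0471 CPM in WT, 0.101 in R206H, 0.0955 in WT + H3.1K27M and 0.143 in R206H + H3.1K27M. Of the receptors and JAK-STAT genes, 1 of 13 tested was higher and 2 were lower with H3.1K27M in the WT background, beside 12.6% and 10.4% of all genes, and 4 of 14 were higher and 6 lower in the R206H background, beside 29.1% and 27.4%. With H3.1K27M present, R206H gave 4 higher and 0 lower of 14, where all genes gave 11.4% and 8.95%, and without it 0 of 13 in either direction. Leaving out WT replicate 1 gave 1 higher and 5 lower of 14 with H3.1K27M in the WT background, and 2 higher and 1 lower of 13 for R206H without H3.1K27M. In that setting 26.9% of all genes were higher and 25.6% lower with H3.1K27M, and 12.1% and 11% with R206H. Ifnar1 and Ifnar2, the chains of the type I receptor, were not higher. Ifnar1 was at 126, 118 and 113 CPM in WT, 117, 116 and 123 in R206H, 112, 114 and 114 in WT + H3.1K27M and 104, 104 and 100.5 in R206H + H3.1K27M. Ifnar2 was at 24.9, 21.4 and 21.5 CPM in WT, 25.95, 23.3 and 22.9 in R206H, 19.3, 15.3 and 16.5 in WT + H3.1K27M and 20.2, 17.2 and 17.4 in R206H + H3.1K27M. In the R206H background both were lower with H3.1K27M, by -0.17 ± 0.04 (SE, edgeR adjusted p = 0.00436) and -0.37 ± 0.08 (SE, edgeR adjusted p = 0.00164). Ifngr2, a chain of the interferon gamma receptor, was at 46.4, 38.4 and 36.4 CPM in WT, 42.1, 45.4 and 43.5 in R206H, 69.2, 64.4 and 67.1 in WT + H3.1K27M and 67.2, 63.1 and 65.5 in R206H + H3.1K27M. It differed by 0.72 ± 0.11 (SE, edgeR adjusted p = 0.00689) and 0.61 ± 0.05 (SE, edgeR adjusted p = 7.17e-07). The other chain, Ifngr1, ran from 29.7 to 37.0 CPM and was called with H3.1K27M in the R206H background, by 0.27 ± 0.05 (SE, edgeR adjusted p = 0.00108). Ifnlr1, a chain of the interferon lambda receptor, was also higher there, by 1.62 ± 0.35 (SE, edgeR adjusted p = 0.00195), but passed the count filter only through the H3.1K27M libraries. Jak2, a kinase of the interferon gamma receptor, was lower with H3.1K27M, at 184, 176 and 154 CPM in WT, 191, 189 and 178 in R206H, 103, 104 and 100.4 in WT + H3.1K27M and 115, 109 and 106 in R206H + H3.1K27M, with -0.75 ± 0.08 (SE, edgeR adjusted p = 0.00293) and -0.73 ± 0.04 (SE, edgeR adjusted p = 7.9e-08). Ptpn6, a phosphatase of blood cells, was lower in the WT background, by -1.56 ± 0.31 (SE, edgeR adjusted p = 0.0167), and passed the filter only through the WT libraries. Socs3, a feedback inhibitor of JAK-STAT signaling, was at 28.2, 23.5 and 19.9 CPM in WT, 39.0, 38.5 and 45.9 in R206H, 18.9, 17.4 and 17.7 in WT + H3.1K27M and 29.7, 23.6 and 25.5 in R206H + H3.1K27M. Its R206H libraries lay above those of WT without H3.1K27M, by 0.78 ± 0.15 (SE, edgeR adjusted p = 0.94), where edgeR called no gene and DESeq2 gave an adjusted p of 0.00923. It was higher with R206H in the presence of H3.1K27M, by 0.57 ± 0.08 (SE, edgeR adjusted p = 2.64e-04), as were Stat3 by 0.18 ± 0.04 (SE, edgeR adjusted p = 0.00457) and Ifngr1 by 0.26 ± 0.05 (SE, edgeR adjusted p = 0.00407), and lower with H3.1K27M in the R206H background, by -0.62 ± 0.09 (SE, edgeR adjusted p = 7.96e-05).

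Of the sensing adaptors and kinases, 3 of 15 were higher and 2 lower with H3.1K27M in the WT background, and 5 of 14 and 3 of 14 in the R206H background, while R206H gave 4 of 14 higher and 0 lower with H3.1K27M and 0 of 16 without. The shares of all genes were 12.6% and 10.4% in the WT background, 29.1% and 27.4% in the R206H background, and 11.4% and 8.95% for R206H with H3.1K27M. Leaving out WT replicate 1 gave 4 higher and 3 lower of 15 with H3.1K27M in the WT background, and 2 higher of 16 for R206H without H3.1K27M. All genes in that setting gave 26.9% higher and 25.6% lower with H3.1K27M, and 12.1% and 11% with R206H. Traf3, an adaptor below several sensors, was at 83.5, 78.7 and 86.6 CPM in WT, 92.2, 83.5 and 90.5 in R206H, 151, 152 and 158 in WT + H3.1K27M and 192, 187 and 203 in R206H + H3.1K27M. It was higher in 3 comparisons, by 0.88 ± 0.06 (SE, edgeR adjusted p = 0.00109) and 1.16 ± 0.05 (SE, edgeR adjusted p = 4.55e-09) with H3.1K27M, and by 0.37 ± 0.04 (SE, edgeR adjusted p = 3.93e-05) with R206H in its presence. Tlr3, an endosomal receptor for double-stranded RNA, was at 29.0, 24.1 and 39.0 CPM in WT, 30.0, 25.5 and 27.8 in R206H, 65.2, 67.5 and 67.7 in WT + H3.1K27M and 67.3, 62.0 and 66.9 in R206H + H3.1K27M, with 1.11 ± 0.17 (SE, edgeR adjusted p = 0.00811) and 1.26 ± 0.06 (SE, edgeR adjusted p = 1.59e-08). Tmem173, which encodes the DNA-sensing adaptor STING, was at 3.01, 0.774 and 0.728 CPM in WT, 2.46, 1.04 and 3.06 in R206H, 5.81, 5.73 and 6.12 in WT + H3.1K27M and 8.03, 7.59 and 8.85 in R206H + H3.1K27M. It gave 1.94 ± 0.53 (SE, edgeR adjusted p = 0.0435) and 1.92 ± 0.23 (SE, edgeR adjusted p = 2.57e-05). Rnaseh2b, a subunit of the enzyme that removes ribonucleotides from DNA, was lower, at 48.9, 54.3 and 48.6 CPM in WT, 48.0, 49.6 and 46.9 in R206H, 27.6, 24.2 and 23.0 in WT + H3.1K27M and 22.5, 22.003 and 22.9 in R206H + H3.1K27M, with -1.03 ± 0.10 (SE, edgeR adjusted p = 0.00199) and -1.07 ± 0.05 (SE, edgeR adjusted p = 1.66e-08). The other subunits had smaller differences in the R206H background, -0.42 ± 0.06 (SE, edgeR adjusted p = 1.31e-04) for Rnaseh2a and -0.37 ± 0.08 (SE, edgeR adjusted p = 0.00203) for Rnaseh2c. Ticam1, the adaptor of Tlr3, differed by 0.23 ± 0.06 (SE, edgeR adjusted p = 0.0172) between the alleles with H3.1K27M, as did Tmem173 by 0.50 ± 0.10 (SE, edgeR adjusted p = 0.00361). Tlr7, a receptor found mostly in blood cells, was also lower in the WT background, by -2.76 ± 0.59 (SE, edgeR adjusted p = 0.0214), and passed the filter only through the WT libraries.

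Of the 51 other induced genes, 16 of 31 tested were higher and 0 lower with H3.1K27M in the WT background, 30 of 33 higher and 1 lower in the R206H background, 10 of 35 higher and 2 lower with R206H in the presence of H3.1K27M (11.4% and 8.95% of all genes), and 0 of 27 in either direction without it. Some of these genes passed the count filter only through the H3.1K27M libraries, so that their direction was partly fixed by it: 3 in the WT background (Oasl1, Ifi47 and Ifit1bl1) and 6 in the R206H background (Oasl1, Ifi47, Oas1b, Oas1c, Ifi27l2a and Cxcl10). Of the genes that passed within the libraries without H3.1K27M, 14 of 28 were higher and 0 lower in the WT background, and 24 of 27 were higher and 1 lower in the R206H background, beside 12.6% and 29.1% of all genes higher. Without WT replicate 1, 23 of 32 were higher and 1 lower in the WT background, and 6 of 26 were higher and 2 lower for R206H without H3.1K27M. The shares of all genes in that setting were 26.9% higher and 25.6% lower in the WT background, and 12.1% and 11% for R206H. These counts were not split by the count filter. Cxcl10, a chemokine that draws T cells, was at 0.800, 0.258 and 0.680 CPM in WT, 0.604, 0.416 and 0.292 in R206H, 23.1, 20.8 and 28.9 in WT + H3.1K27M and 22.4, 19.9 and 22.6 in R206H + H3.1K27M. It stayed under 1 CPM in each library without H3.1K27M, and its log2 fold changes were 5.35 ± 0.35 (SE, edgeR adjusted p = 9.43e-04) and 5.65 ± 0.16 (SE, edgeR adjusted p = 4.03e-10). Oasl1, a relative of Oasl2, was at 0, 0 and 0.0485 CPM in WT, 0, 0.156 and 0.0972 in R206H, 2.66, 2.05 and 3.40 in WT + H3.1K27M and 4.23, 2.92 and 4.97 in R206H + H3.1K27M, and no fold is given since 1 or more libraries of WT and R206H were at 0. Nlrc5, a regulator of MHC class I genes, was at 4.99, 4.28 and 5.10 CPM in WT, 8.55, 6.76 and 6.80 in R206H, 21.95, 25.3 and 29.6 in WT + H3.1K27M and 24.5, 23.1 and 24.8 in R206H + H3.1K27M, with 2.40 ± 0.15 (SE, edgeR adjusted p = 9.29e-04) and 1.74 ± 0.09 (SE, edgeR adjusted p = 2.56e-08). Lgals3bp, a secreted glycoprotein, was at 12.8, 12.3 and 17.7 CPM in WT, 19.3, 15.4 and 16.6 in R206H, 47.5, 52.7 and 56.2 in WT + H3.1K27M and 68.0, 61.7 and 74.7 in R206H + H3.1K27M. It was higher by 1.86 ± 0.16 (SE, edgeR adjusted p = 0.00168) and 2.03 ± 0.09 (SE, edgeR adjusted p = 5.04e-09) with H3.1K27M and by 0.42 ± 0.07 (SE, edgeR adjusted p = 0.00138) between the alleles in its presence. Trim30a, of the tripartite motif family, stood at 1.88, 3.095 and 3.64 CPM in WT, 4.33, 4.31 and 3.89 in R206H, 8.18, 9.93 and 12.4 in WT + H3.1K27M and 17.4, 14.5 and 19.4 in R206H + H3.1K27M. Ifitm2, a relative of Ifitm3, was at 7.29, 5.52 and 5.97 CPM in WT, 8.80, 9.25 and 8.99 in R206H, 14.2, 12.99 and 13.8 in WT + H3.1K27M and 17.0, 16.0 and 16.4 in R206H + H3.1K27M. Between the alleles with H3.1K27M they differed by 0.78 ± 0.14 (SE, edgeR adjusted p = 0.00152) and 0.30 ± 0.07 (SE, edgeR adjusted p = 0.0094). The lower genes of that comparison were Slfn2 with -0.87 ± 0.22 (SE, edgeR adjusted p = 0.0162) and Gbp5 with -0.66 ± 0.20 (SE, edgeR adjusted p = 0.0368), both under 4 CPM in all libraries. The single lower gene with H3.1K27M in the R206H background was Apobec3, a cytidine deaminase that restricts retroviruses, at 27.8, 28.5 and 25.9 CPM in WT, 28.4, 33.4 and 32.2 in R206H, 22.1, 22.7 and 24.2 in WT + H3.1K27M and 23.8, 23.1 and 24.6 in R206H + H3.1K27M, with -0.36 ± 0.07 (SE, edgeR adjusted p = 8.09e-04).

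**Figure D4:**
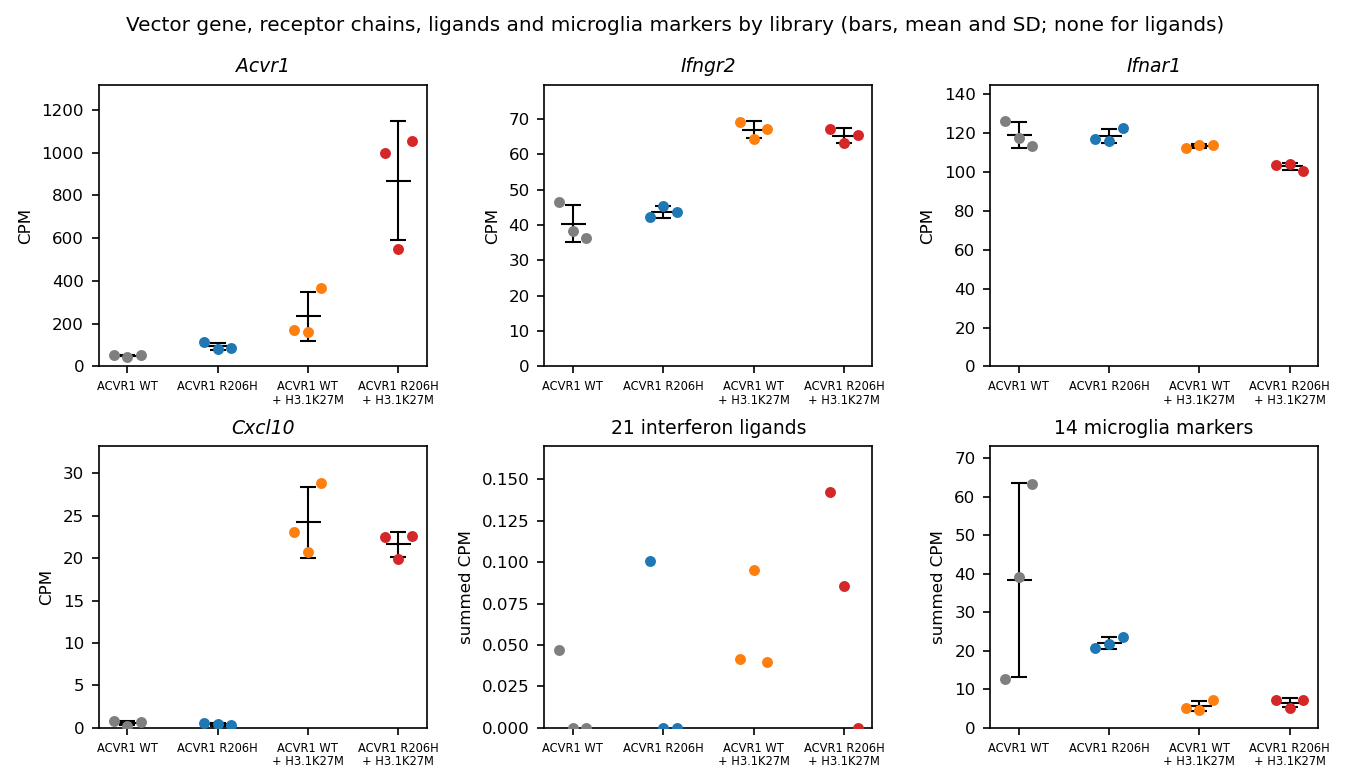
CPM in each library of the vector gene Acvr1, of Ifngr2, Ifnar1 and Cxcl10, and summed CPM of 21 interferon ligands and 14 microglia markers, with points for replicates 1 to 3 from left to right and bars for the mean and SD (no bars for the ligands). Ifngr2 and Cxcl10 are higher in the H3.1K27M groups, Ifnar1 is not, the ligands stay under 0.15 CPM, and the microglia markers are lower.

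Markers of other cells differed between the groups. The 14 microglia and macrophage markers summed to 12.8 to 63.2 CPM in WT, 20.6 to 23.6 in R206H, 4.78 to 7.12 in WT + H3.1K27M and 5.23 to 7.25 in R206H + H3.1K27M, which is the opposite direction to most of the interferon-stimulated genes. Of the 11 tested in the WT background 9 were lower, and of 8 in the R206H background 7 were lower and 1 higher. These counts were largely fixed by the count filter, since 9 of the 11 and 6 of the 8 passed it only through the libraries without H3.1K27M. Of the 2 that passed within the H3.1K27M libraries, 0 were called in the WT background, and 1 was higher and 1 lower in the R206H background. C1qa, a microglial complement subunit, was at 1.08, 5.11 and 8.69 CPM in WT, 2.67, 2.599 and 2.24 in R206H, 0, 0 and 0.0400 in WT + H3.1K27M and 0, 0 and 0.0374 in R206H + H3.1K27M, so that this defining marker was at 0 in 2 of the 3 libraries of each H3.1K27M group. Gbp2, Gbp7 and Xaf1 were highest among the WT libraries in replicate 3, where the microglia sum was also the highest, and their part in those differences was not tested. Pericyte and fibroblast markers had sums of 59.3 to 107 CPM in WT, 82.6 to 105 in R206H, 141 to 162 in WT + H3.1K27M and 124 to 140 in R206H + H3.1K27M, higher in each library with H3.1K27M than in those without, with 3 of 5 called higher in the WT background and 4 of 4 in the R206H background. Endothelial markers gave 0 calls of 2 and 1 higher with 1 lower of 2, neuronal markers 1 higher of 5 and 3 higher with 1 lower of 5, oligodendrocyte markers 1 lower of 6 and 2 higher with 2 lower of 6, and neural progenitor markers 4 lower of 8 and 2 higher with 4 lower of 8, in the WT and R206H backgrounds. Of all genes, 12.6% were higher and 10.4% lower in the WT background and 29.1% and 27.4% in the R206H background. The neuronal marker Rbfox3, called higher in the R206H background, passed the count filter only through the H3.1K27M libraries. Of the 4 neuronal markers that passed within the R206H libraries, 2 were higher and 1 lower. With so few markers a list none of these counts is read as a change of the list. Without WT replicate 1 the WT background gave 10 lower of 11 microglia markers, 3 higher of 5 pericyte and fibroblast, 1 lower of 2 endothelial, 1 higher and 2 lower of 5 neuronal, 3 lower of 6 oligodendrocyte and 3 higher and 4 lower of 8 progenitor markers. All genes were then 26.9% higher and 25.6% lower. Between the alleles with H3.1K27M, 1 of 2 tested microglia markers was higher, 1 of 4 endothelial, 2 of 6 pericyte and fibroblast, 2 of 5 neuronal, 0 of 6 oligodendrocyte and 4 of 8 progenitor markers, and 0, 0, 1, 1, 4 and 2 of them were lower, beside 11.4% higher and 8.95% lower of all genes. For R206H without H3.1K27M no marker was called, as no gene was. Leaving out WT replicate 1, 12.1% of all genes were higher and 11% lower with R206H. Of the markers, 7 of 12 microglia and 3 of 6 oligodendrocyte markers were then lower, and 1 of 2 endothelial markers was higher. Of 8 progenitor markers 2 were higher and 1 lower, and pericyte, fibroblast and neuronal markers gave 0 calls. What part these cells had in the results was not tested.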

How the data were processed

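RNAseq of 12 libraries, 3 in each of the 4 groups, was used, grouped and numbered as the labels give them. The authors mapped read pairs to mm10 in Galaxy using RNA-STAR (STAR 2.6.0b-1 in the submitters' processing notes) and assigned them to Ensembl genes with HTSeq-count in union mode, ignoring strand and dropping multi-mapped reads and those with an alignment quality under 10. The deposited values are the raw counts per gene of each library, neither normalized nor pooled. The study's methods count cell lines from independent litters as replicates of the neurosphere assays but do not say so of these libraries, and neither do the labels, so p-values measure only the spread between these samples, which may be technical. No pair of replicates had identical counts.

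Each comparison of 2 groups was tested on its own 6 libraries in edgeR 4.0.16 under R 4.3.3 by the quasi-likelihood F test after TMM normalization. Genes needed a mean count of 10 or more after median-of-ratios scaling, p-values were adjusted by Benjamini-Hochberg over all genes tested, and the threshold was 0.05. The interaction was fitted on all 12 libraries. The smallest two-sided exact p that 3 libraries against 3 allow for 1 gene is 0.1. Symbols, positions and exon lengths came from GENCODE M21, in which 54495 of the 54532 genes were found, and promoter windows from RefSeq, both on GRCm38. The 40 genes and the other lists were chosen with earlier results of these data known.

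Values per library are given for each of the 40 genes called in a test, at most 4 a role and comparison by smallest adjusted p, for Isg15, Stat2, Irf7 and Ifit1 in any case, and for the rest as ranges. Of the pathway lists, the receptor chains are always given, with at most 3 called genes a list and direction in each comparison, and Acvr1, Trp53 and Id1 as checks of the labels. 1 gene of the receptor and JAK-STAT list is not reported here. Alternatives were DESeq2 1.42.0, median-of-ratios size factors in edgeR, no filter on low counts, the replicate number as a block, limma 3.58.1 (voom) with sample quality weights, all 12 libraries in 1 fit, leaving out each library in turn, and the promoter motifs on the sense strand alone.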

Additional observations from a re-analysis of the deposited data

How the results depend on the processing

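Groups of 3 limit these results, and depth was not varied. In the H3.1K27M comparison with R206H the calls of higher genes held in count under each alternative, and 1 setting, all 12 libraries in 1 fit, left 0 lower genes. In the H3.1K27M comparison with WT, leaving out 1 library gave 14 to 27 higher and 0 to 2 lower genes of the list and 1037 to 8115 genes in all. There the count of lower genes was 1 with DESeq2, 1 without the filter on low counts, 3 with limma and 1 with all 12 libraries in 1 fit, and all genes called numbered 9234 with limma and 6335 with all 12 libraries. For R206H against WT without H3.1K27M, 26 genes in all were called by DESeq2 and 11 with all 12 libraries in 1 fit, limma gave 3 higher and 2 lower of the list and 3683 in all, and leaving out 1 library gave 0 to 3 higher, 0 to 3 lower and 0 to 3485 in all. With H3.1K27M, all 12 libraries in 1 fit gave 2 higher, 0 lower and 440 in all, and leaving out 1 library 11 to 20 higher and 1915 to 2966 in all. For the interaction, genes called in all were 96 with DESeq2, 18 without the filter and 4550 with limma (9 higher and 4 lower of the list), and 3 to 4112 with 1 library left out (0 to 11 higher and 0 to 3 lower). On the sense strand alone the ISRE core was held by 23.5% of the windows of the list and 1.74% of all windows. The cause of these differences was not tested.

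Log2 values near 0 of genes that were not called changed sign. For R206H against WT, limma gave 0.009 for Ifnar1 without H3.1K27M and 0.019 for Ifngr2 with it. With 1 library left out, values without H3.1K27M ran from -0.129 to 0.064 for Stat2, from -0.383 to 0.249 for Irf7 and from -0.048 to 0.033 for Ifnar1, those with H3.1K27M from -0.035 to 0.015 for Ifngr2, and those of H3.1K27M with WT from 0 to 0.053 for Ifngr1. In the interaction they ran from -0.06 to 0.305 for Isg15, from -0.101 to 0.301 for Ifit1 and from -0.029 to 0.143 for Ifnar2.

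The replicate numbers could not be shown to pair the libraries, since the correlations of same-numbered libraries' deviations ran from -0.14 to 0.418. With the replicate number as a block, the H3.1K27M comparison with WT gave 17 higher genes of the list and 2023 genes in all, the interaction 2 genes in all, and Irf7 a log2 value of 0.025 for R206H against WT without H3.1K27M. The 7 genes lost there were Eif2ak2, Ifit2, Ifit3, Cmpk2, Herc6, Iigp1 and Parp9, at adjusted p values of 0.0504 to 0.07 in edgeR. For R206H against WT with H3.1K27M the block gave 20 higher and 2 lower genes of the list, adding Isg15 (0.33, adjusted p = 0.0191) and Ifit1 (0.30, adjusted p = 0.00621).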

Other observations

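In both H3.1K27M groups replicate 3 held the highest level of most of the interferon-stimulated genes. It was the highest of its group for 32 of 36 genes in WT + H3.1K27M, where 33.5% of all genes were highest in that library, and for 32 of 36 in R206H + H3.1K27M, where the share of all genes was 36.4%. The same 2 libraries had the highest Acvr1 of their groups, at 368 and 1056 CPM. In WT, replicate 3 was the highest for 21 of 36 genes and replicate 1 the lowest for 21, against 35.2% and 43.2% of all genes. In R206H, where replicates 1 to 3 were highest for 16, 12 and 8 genes, no library stood out to that degree. What these ranks reflect was not tested.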
